A study of Bos taurus with 16 samples.

Results

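Placental lactogen and the prolactin-related proteins PRP1, PRP3, PRP6 and PRP8 were examined in CD14+ cells of the pregnant cow. The members were the probes whose gene name, or the symbol in brackets in their description, was PRP1, PRP3, PRP6, PRP8, CSH1 or CSH2, and all probes of a gene were taken. The 6 names gave 5 probes, under 5 of the 20602 gene names on the array, out of 21475 probes. Each was printed as 2 spots. The probe that the array names CSH1 is listed in the RefSeq gene table of assembly ARS-UCD2.0 under CSH2, with CSH1 as an older name, so 1 probe stood for both names of placental lactogen.

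CD14+ cells were sorted by flow cytometry from dispersed endometrium and from the mononuclear cells of cardiac blood of 4 pregnant cows, and the 2 cell preparations of a cow are the groups compared. Animal 1 was at day 164 of pregnancy, animal 2 at day 239, animal 3 at day 242 and animal 4 at day 248, with their breed and age not given in the sources used here. Uterus and blood were collected at an abattoir and brought to the laboratory on ice. No treatment of the cows is described, and all were pregnant, so that neither group is a control without pregnancy. The endometrium was dissected between the placentomes of the horn that held the fetus. By the authors' flow cytometry, the sort for CD14 left a small share of other cells, larger in the endometrial preparation than in that from blood. RNA was amplified, and the endometrial and blood RNA of a cow were labeled with different dyes and hybridized to the same Agilent array, on 2 arrays per animal as technical replicates. The dyes were swapped between these arrays in 3 of the 4 animals. In animal 3 the endometrial RNA carried Cy5 on both, so that tissue and dye cannot be told apart in that animal. Because only 1 cow was at an earlier stage, day of pregnancy and animal cannot be told apart either. Between 63.1% and 81.5% of the probes of a channel, which is an array read in 1 dye, were well above background by the scanner's flag. Precision is limited by the number of animals, because the arrays of an animal are technical replicates.

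The label of the cells was checked first on CD14, the receptor on which they were sorted, whose probe was well above background in all channels. Its log2 values in animals 1 to 4 were 14.04, 6.07, 9.5 and 7.38 in endometrium and 16.12, 5.76, 8.85 and 6.94 in blood. In animals 2 and 4 it thus lay below the column median of 8.004 in both tissues, although probes differ in brightness. CD3D, a subunit of the T cell receptor complex, ran the other way in animals 1, 2 and 4. Its values were 6.17, 12.72, 7.02 and 11.82 in endometrium and 5.40, 12.67, 10.35 and 11.43 in blood. These are single probes, and others of the same cell types did not all follow them. In the endometrium of animals 2 and 4, AIF1 of macrophages was at 14.53 and 16.09 and CD68 at 7.2 and 11.6. In that of animal 3, CD3E and CD3G, further subunits of the complex, were at 14.72 and 11.07. The part of the makeup of the sorted cells in the results was not tested. Results for each animal are given beside the means, and those without animal 2 or 4 follow the tests.

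Prolactin, growth hormone and placental lactogen are related protein hormones that act through receptors of the cytokine receptor family, which signal through the kinase JAK2 and the STAT5 transcription factors. In ruminants the gene of prolactin has given rise to a cluster of genes expressed in the placenta. Placental lactogen is secreted by the binucleate cells of the trophoblast, which migrate into the uterine epithelium, and binds the prolactin receptor. The prolactin-related proteins are made by the same lineage, and what they do is less well known.

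Since the genes of this family resemble one another, the letters of the probes were compared first. Each probe is a 60-base oligonucleotide on the array, and for the prolactin-related proteins a stretch of 30 bases is shown 5′ to 3′, with the longest run of bases shared with another family probe in capitals. The first pair shows the longest run among them.
PRP6, bases 24 to 53: gaatcATCTATCCCATAGCAAGCTTatttg
PRP5, bases 28 to 57: taatgATCTATCCCATAGCAAGCTTtttaa
The probe of PRP6 and that of the relative named PRP5 on the array had 20 bases in a row in common, and in the best ungapped placement 29 positions were identical.
PRP1, PRP3 and PRP8 shared at most 8 bases in a row with any family probe. In the best ungapped placement the probe of PRP1 was also identical to that of PRP6 at 29 positions.
PRP1, bases 31 to 60: acctgaaatttcacagctcTTTAATGCatg
PRP3, bases 30 to 59: gggattcacgtaAACTTGacatgtacaccg
PRP8, bases 30 to 59: tccagtaaggcgGCTGACCgagggtgaaat
With probes outside the family, PRP1, PRP3, PRP6 and PRP8 shared runs of 12 to 13 bases, and none of them had its 60 bases on the array under another name. How much of the signal of PRP6 came from transcripts of PRP5 or PRP1, or the reverse, was not tested.

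The 5 member probes had higher values in endometrium than in blood in 4 of 4 animals, and the animals of the 2 tissues did not overlap for any of them. Of all probes tested, 9.82% had the endometrial value above that of blood in each of the 4 animals, and 2.7% had every endometrial animal above every blood animal. Values are those of the authors' table, on a log2 scale after quantile normalization, with a median of 8.004 in every column. Apart from the sums over marker lists, they are compared between samples for 1 probe at a time, because the brightness of different probes is not comparable. In these bulk samples, fewer cells of a type and less RNA per cell cannot be told apart.

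For PRP1, the first of the prolactin-related proteins, the log2 values in the endometrium of animals 1 to 4 were 12.98, 12.53, 14.05 and 12.62, and those in blood were 8.10, 7.32, 8.82 and 6.94. Animal 3 was highest in both tissues, and the lowest endometrial value lay above the highest in blood.
PRP6, another prolactin-related protein, reached 13.09, 12.61, 14.03 and 11.78 in the endometrium of animals 1 to 4 and 7.67, 6.82, 8.41 and 5.67 in their blood. Again animal 3 was highest in both tissues, and animal 4 was lowest in both.
Placental lactogen, CSH1, had values of 12.33, 12.72, 13.75 and 11.27 in endometrium and of 7.52, 7.04, 8.59 and 5.11 in blood, in the order of the animals. Its highest and lowest animals were also animals 3 and 4 in either tissue.
For PRP8, also of the prolactin-related group, the endometrial values were 9.98, 10.35, 12.50 and 10.36, and those of blood were 5.86, 5.58, 6.83 and 5.16. Animal 3 stood apart from the other animals in endometrium.
PRP3, the remaining prolactin-related protein, was at 7.80, 8.19, 10.10 and 9.81 in endometrium and at 3.08, 3.32, 3.14 and 3.32 in blood. None of the 8 blood channels gave a signal well above background, so that the blood values only bound its level.

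**Figure D1:**
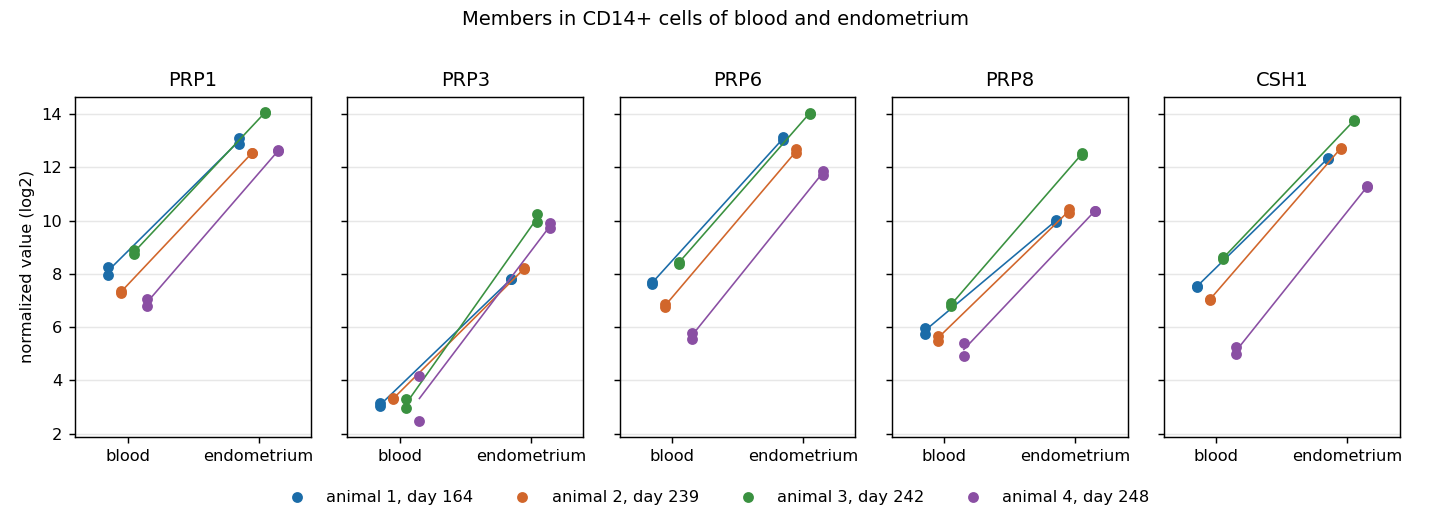
Normalized value (log2) of each member in blood and endometrial CD14+ cells of 4 animals. Points are the 2 technical replicates of an animal and lines join the means of its tissues. All endometrial points lie above all blood points of the same gene, and animal 3 is highest in both tissues for PRP1, PRP6, PRP8 and CSH1.

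Technical replicates of an animal lay close together where the probe was measured in both tissues. For PRP1, PRP6, PRP8 and CSH1 they differed by at most 0.199 on the log2 scale in endometrium and by at most 0.496 in blood. The range over the 4 animals of these genes was 1.52 to 2.51 in endometrium and 1.67 to 3.48 in blood, so the animals at the ends of the range differed by more than the technical replicates. Some neighbors in the order of the animals did not differ beyond this spread. In endometrium, animals 2 and 4 were at 12.53 and 12.62 for PRP1 and at 10.35 and 10.36 for PRP8. In blood, animals 1, 2 and 4 were at 5.86, 5.58 and 5.16 for PRP8, each within 0.496 of its neighbor. For PRP3 in blood, technical replicates of animal 4 differed by 1.70 while the animals spanned 0.242, and no order of animals could be read.

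In blood the order of the animals was the same for PRP1, PRP6 and CSH1, with animal 3 followed by animals 1, 2 and 4. For PRP8 in blood only animal 3 stood apart. In endometrium animal 3 was highest for PRP1, PRP6, PRP8 and CSH1. Animal 4 was lowest for PRP6 and CSH1 and animal 1 for PRP8, while no animal was set apart as lowest for PRP1. As the blood and endometrial RNA of an animal lay on the same arrays, the part of the hybridization in this shared order was not tested.

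The scanner's intensities before any normalization show how far each member stood above the glass. In endometrium the median intensity of the PRP1 spots was between 909 and 8420, which is 60.6 to 190 times the local background. In blood it was between 42.3 and 182, or 2.46 to 6.12 times the background, and 8 of 8 blood channels were flagged as well above it. So were 8 of 8 for PRP6 and CSH1, at 1.78 to 5.96 and at 1.63 to 5.52 times the background. The blood signal of these genes was thus weak but measured. PRP8 passed in 7 of 8 blood channels, at 1.505 to 2.42 times the background. The signal of PRP3 in blood was 1.18 to 1.52 times the background and in endometrium 5.05 to 10.0 times. Every endometrial channel was well above background for the 5 members, and none of their spots was saturated or marked as an outlier.

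**Figure D2:**
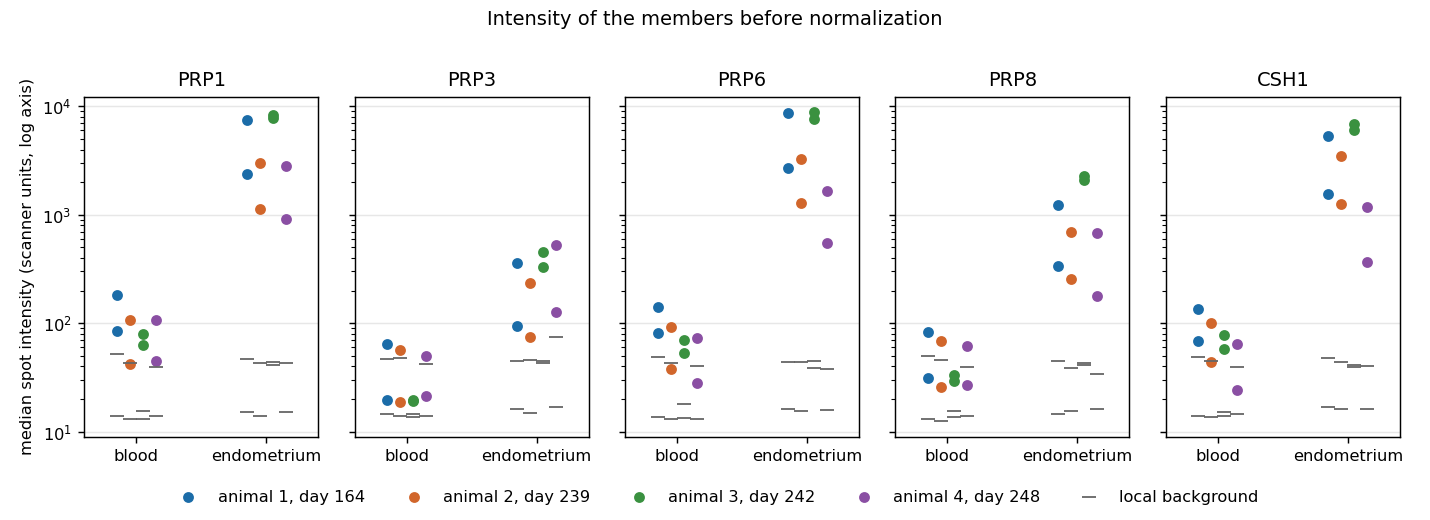
Median spot intensity of each member before normalization (scanner units, log axis) in the 8 blood and 8 endometrial channels, with the local background of the same spots as dashes. Blood intensities of PRP1, PRP6 and CSH1 lie above the background in every channel, while those of PRP3 lie at 1.18 to 1.52 times the background.

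The question of the comparison was which genes differ between CD14+ cells of the endometrium and those of the blood. The log2 ratio of endometrium over blood of each animal was tested against 0 with limma over the 16653 probes that passed a filter on dim signals, which asked for 4 or more channels of the endometrium or of the blood (8 each) to be well above background. To be called upregulated in endometrium a probe needed a fold change over 2 and an adjusted p, by Benjamini and Hochberg, of no more than 0.05. All 5 members passed the filter and were upregulated in endometrium, against a background of 1.23% of all probes tested. The filter could be passed through endometrium alone, as it was by PRP3.

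PRP6 was 53.3-fold higher in endometrium, with log2 ratios of 5.42, 5.79, 5.62 and 6.11 in animals 1 to 4 and a mean of 5.74 ± 0.292 (SD, n = 4 animals, limma adjusted p = 0.00733). CSH1 was 43.8-fold higher, with ratios of 4.81, 5.68, 5.17 and 6.16 and a mean of 5.45 ± 0.591 (SD, n = 4, limma adjusted p = 0.00733). PRP1 was 38.1-fold higher, with ratios of 4.88, 5.21, 5.24 and 5.68 and a mean of 5.25 ± 0.332 (SD, n = 4, limma adjusted p = 0.00733). The ratios of these 3 genes differed less between animals than did their levels in either tissue. PRP8 was 30.7-fold higher, with ratios of 4.12, 4.77, 5.66 and 5.20 and a mean of 4.94 ± 0.654 (SD, n = 4, limma adjusted p = 0.00818). For PRP3 the endometrial signal was at least 19.0-fold higher, on the scale of the value table, set against the lowest value that was well above background in each blood channel. The ratios of its table values, with a blood side not well above background, were 4.72, 4.88, 6.96 and 6.49. Their mean was 5.76 ± 1.13 (SD, n = 4, limma adjusted p = 0.00826), and this p rests on those blood values.

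By size of the log2 ratio, PRP6 was at rank 17, CSH1 at 32, PRP1 at 43 and PRP8 at 66 of the 16653 probes tested. PRP3 has only a bound in blood and was given no rank. It and other probes without a measured blood signal are still counted in the ranks of the rest. The highest ratio of any called probe was 6.91, and the median over all probes tested was -0.14. Relative to that median the 4 members measured in blood were higher by 5.08 to 5.88 on the log2 scale. Their ratios in single animals were, in the order of the animals, 4.12 to 5.42, 4.77 to 5.79, 5.17 to 5.66 and 5.20 to 6.16. The share of all probes tested that were at or above the lowest of the 4 in the animal was 2.49%, 0.757%, 2.81% and 0.757%.

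The calls depended on the test, on 1 animal and on how the background of the dim members was treated. Without animal 4 none of the 5 members was called, at log2 ratios of 4.85 to 5.61 and a limma adjusted p of 0.0574 for each, which was also the lowest of all 16653 probes. The analysis of variance of the methods gave none either, with an adjusted p of 0.202 to 0.270 for the members. Before adjustment, 5 of 5 members had a p below 0.05 with a fold change over 2 in both cases, and so did 8.02% of all probes without animal 4 and 3.8% by the analysis of variance, counting those higher in endometrium. Without animal 2 all 5 were called, with a limma adjusted p of 0.0287 to 0.0296, as were 1.06% of all probes in that direction.
When the median intensities of the scanner were corrected with the normexp method, which adds an offset of 50, PRP1, PRP6 and CSH1 remained upregulated, against a background of 0.0661% of the probes tested. Their log2 ratios were then 4.22 (adjusted p = 0.0241 by limma), 4.36 (0.0241) and 3.93 (0.0263). PRP8 had a ratio of 2.63 (limma adjusted p = 0.116) and PRP3 one of 1.61 (0.262), and neither passed. The median over all probes was -0.02 with this correction, and the 4 members measured in blood stood 2.65 to 4.38 above it.
The values of the table are background-subtracted, which raises ratios of dim signals. With median intensities and no correction for background the log2 ratios were 4.90 (PRP6), 4.67 (PRP1), 4.48 (CSH1), 3.39 (PRP8) and 2.48 (PRP3).
With normexp the order of the animals by ratio also changed. Animal 4 had the highest ratio of PRP6 and CSH1 in the value table, at 6.11 and 6.16, and the lowest with normexp, at 3.92 and 3.46.

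**Figure D3:**
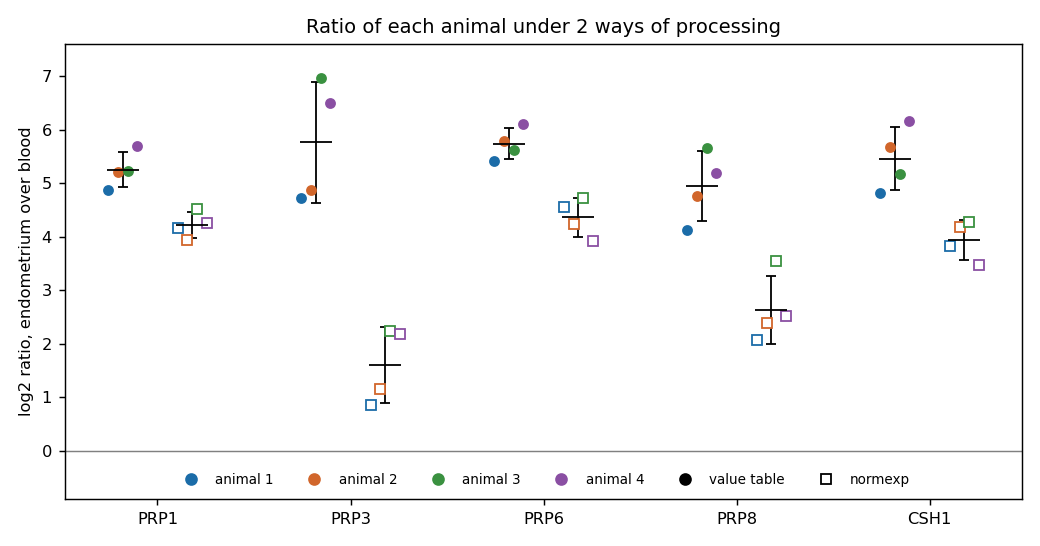
Log2 ratio of endometrium over blood of each member in 4 animals, from the value table (filled circles) and from median intensities with normexp (open squares). Bars are the mean and SD over animals. Every ratio is above 0 under both ways of processing, and the mean of PRP3, whose blood signal was not well above background, is 5.76 in the value table and 1.61 with normexp.

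The prolactin family has further members on the array. Of the 12 other names looked for, 3 had a probe that belongs to the family, and with the probes described as prolactin-related proteins or as similar to the prolactin precursor there were 7. A probe named PRP2 is a proline-rich protein, now TMEM171, and was left out. Of the 7 probes 3 passed the filter and 1 was upregulated in endometrium. This was PRP5, which the RefSeq table lists as PRP4, and it passed through endometrium alone. Its log2 values were 9.38, 8.11, 10.84 and 9.67 in the endometrium of animals 1 to 4 and 4.59, 3.08, 4.76 and 3.44 in blood, where 1 of 8 channels was well above background, so that the level in blood is a bound in most. The tissues did not overlap, and the mean ratio was 5.53 ± 0.725 (SD, n = 4, limma adjusted p = 0.00733), or 1.93 with normexp (adjusted p = 0.231).
LOC618290, described on the array as similar to the prolactin precursor, had no blood channel well above background and was at least 2.96-fold higher in endometrium, with a limma adjusted p of 0.0614. PRP9, also a prolactin-related protein, had ratios of -0.12, 0.37, 1.79 and 0.62 and did not pass (limma adjusted p = 0.552). Prolactin itself, PRL, passed the background in 2 endometrial channels and in 0 blood channels and was not tested.

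The genes of the family lie next to one another in assembly ARS-UCD2.0. The probes of the array were designed on another build, so the table was used for names and order only. From PRP4 to PRL it lists 19 genes and pseudogenes, of which 10 had a probe, 7 were tested and 6 were upregulated in endometrium, of which PRP4 and PRP3 passed the filter through endometrium alone. Starting at PRP4, the first genes with a probe were PRP4, PRP8, PRP6 and PRP1, and all of these were upregulated, with log2 ratios of 4.94 to 5.74. The next with a probe were PRP9, the pseudogene LOC615210, with no channel well above background, and PRP-VII, which was so in 2 endometrial channels. These were followed by PRP3 and placental lactogen, both upregulated, and by PRL. For 3 protein-coding genes between PRP1 and PRP9, namely LOC100298767, PRP2 of the prolactin family and PRP14, no probe was matched. Members that were called thus stood on both sides of relatives that were not called or were below the filter.

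**Figure D4:**
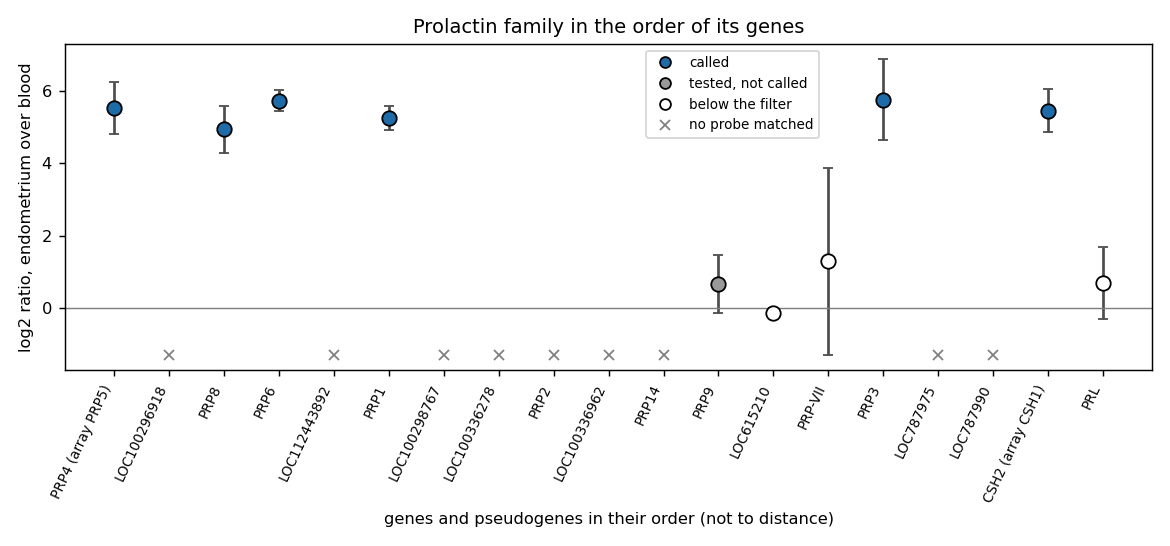
Mean log2 ratio of endometrium over blood (points) and SD over 4 animals (bars) for the genes from PRP4 to PRL in their order, without distances. Filled blue points were called, the gray point was tested and not called, and open points were below the filter. The called genes have ratios of 4.94 to 5.76 and PRP9, PRP-VII and PRL lie between 0.67 and 1.30. The value of 5.76 is that of PRP3, whose blood signal was not well above background.

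Among receptors and signaling genes of the family, no probe was called. Of 20 genes 17 were matched to probes by name, 21 in all, and 18 were tested. With limma, 0 of the 18 were called in either direction, 6 had an unadjusted p below 0.05 with a fold change over 2, and the analysis of variance gave 4 within these unadjusted limits. Of all 16653 probes tested, 224 were called, 2670 passed the unadjusted limits, and 1229 did so by the analysis of variance. Their median log2 ratio was -0.54, against -0.14 over all probes.
The prolactin receptor, PRLR, which placental lactogen binds, had the highest ratio of the list. Its log2 values were 7.47, 10.70, 16.41 and 13.58 in the endometrium of animals 1 to 4 and 5.75, 6.59, 9.17 and 7.56 in blood. The tissues overlapped, since animal 1 in endometrium lay below animals 3 and 4 in blood. PRLR was higher in endometrium within 4 of 4 animals, with ratios of 1.72, 4.11, 7.24 and 6.02, a mean of 4.77 ± 2.41 (SD, n = 4) and a limma adjusted p of 0.0676. Its spread over animals was thus wider than that of the hormones.
IGF1, the growth factor that growth hormone induces in many tissues, had a ratio of 2.95 (limma adjusted p = 0.212). STAT5B, a transcription factor activated by these receptors, had one of -1.83 (limma adjusted p = 0.153) and was lower in endometrium in 4 of 4 animals. So were 2524 of all 16653 probes tested.

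The pregnancy-associated glycoproteins, which are proteins of the aspartic proteinase family and are also made by trophoblast, were measured beside the hormones. Of their 22 probes 20 were tested and 11 were upregulated in endometrium, against 1.23% of all probes tested. The median log2 ratio of the 20 was 4.27. With probes that no blood channel measured set at their bound, the median was 3.63. Called and measured in blood were PAG1B (5.24, in 1 blood channel), PAG4 (5.19), PAG10 (4.88) and PAG7 (4.63). The other called probes had no blood channel well above background, and on the scale of the value table they were at least 55.0-fold and 3.29-fold (2 probes of PAG17), 22.0-fold (PAG5), 17.8-fold (PAG15), 17.4-fold (PAG3), 16.8-fold (PAG6) and 14.3-fold (PAG21) higher in endometrium. A further probe of PAG17 had no channel well above background, and another of PAG7 had a ratio of 3.33 and was not called (limma adjusted p = 0.177). With normexp, 2 of the 20 were called, PAG4 and PAG7. Of the 22 probes, 13 were not well above background in any blood channel, as with PRP3.

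The 10 probes most like the members were found by Pearson's r with the mean standardized profile of the 5 members over the 8 means of animal and tissue, as a description. They included 5 of the glycoproteins, PAG5 (r = 0.994), PAG7 (0.990), PAG17 (0.988), PAG4 (0.983) and PAG10 (0.980). PRP5 was among them with 0.982. The remaining 4 were LOC613791, described as similar to prochymosin (0.993), the unnamed transcript AU278548 (0.990), LOC512903, described as similar to carboxypeptidase A4 (0.984), and S100G (0.982), a vitamin D-dependent calcium-binding protein that the array calls CALB3. The members themselves had r of 0.963 (PRP3) to 0.998 (PRP1) with their own mean profile. These 8 points fall into 2 tissues that do not overlap, which by itself gives a high r.
Between pairs of members r was 0.902 to 0.994, and with each tissue centered on its mean it was -0.01 to 0.964. These pairs include PRP3, whose blood values were not well above background in any channel and gave no order of animals. Whether members differed from one another within tissues therefore cannot be read from the lowest r.

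Marker genes of the cell types that the sorted cells could hold were read in the same way. Of 22 trophoblast genes other than the hormones and glycoproteins, 11 were matched to a probe by the array's names and 7 were tested. With limma 0 of the 7 were called, 2 passed the unadjusted limits, and the analysis of variance gave 1. Over all 16653 probes tested these counts were 224, 2670 and 1229, so 0 calls among 7 probes are near that share. ELF5, a transcription factor of trophoblast and of other epithelia, had a log2 ratio of 2.30 (limma adjusted p = 0.100), TFAP2C one of 1.67 (0.265) and GATA3 one of -1.28 (0.464). The ratios of GATA3 in animals 1 to 4 were 0.06, -0.92, -4.24 and -0.01. The paper lists ELF5 and HAND1 among genes higher in endometrium. HAND1 is on this list but was not matched to a probe by name. TKDP1, TKDP4, CDX2 and GCM1 had no channel well above background. The summed linear signal of the list, expressed as log2, was 11.07 to 13.35 in the endometrial samples and 11.46 to 15.14 in those of blood. Such a sum is weighted toward the brightest probes of a list. Between 17.0% and 97.4% of this sum in blood, and 6.25% to 95.7% in endometrium, came from the probe of ETS2, a transcription factor that other cells also express. The median ratio of the list was -0.26.
Of 15 genes of endometrial epithelium and glands, 11 were matched to a probe by the array's names and were tested. Of these, 6 were upregulated, against 1.23% of all probes tested. With normexp 0 of the 11 were called, against 0.0661% of all probes. Called in the value table were the keratins KRT7 (5.88), KRT18 (3.90) and KRT8 (3.47) and the junction proteins CDH1 (5.11) and CLDN3 (4.43). So was the chemokine CXCL14 (5.20). KRT7 had 2 of 8 blood channels well above background, and the tissues overlapped for KRT8 and CXCL14. S100G is also on this list but, named CALB3 on the array, is not among the 11. Its ratio was 4.94, and it was upregulated in endometrium too (limma adjusted p = 0.00733), also with normexp (limma adjusted p = 0.0331). The summed signal of this list was 13.24 to 17.57 in endometrium and 9.55 to 13.11 in blood. In 4 of 4 animals 10 of the 11 were higher in endometrium, as were 9.82% of all probes tested.
Among 13 probes of stromal genes 11 were tested, and the proteoglycan DCN (5.26) and the collagen COL3A1 (4.86) were upregulated, against 1.23% of all probes tested. With normexp 0 of the 11 were called. Another probe of DCN had a ratio of 2.83 and was not called (limma adjusted p = 0.322). The summed signal of stroma was 12.72 to 18.54 in endometrium and 13.01 to 16.75 in blood, where vimentin, VIM, which leukocytes also express, made up 95.0% to 97.2% of it. A part of these cell types in the values of the hormones was not tested.

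Of the sorted cells' own genes, 12 probes of macrophages and monocytes, 10 were tested. MSR1, a scavenger receptor, was upregulated in endometrium (4.61), while another probe of it was not (2.85, limma adjusted p = 0.0560). With normexp 0 of the 10 were called. The summed signal was 15 to 18.70 in endometrium and 12.93 to 18.41 in blood. AIF1 made up 16.2% to 72.3% of it in endometrium, and TYROBP 29.0% to 57.9% in blood.
For T and natural killer cells limma called 0 of 9 probes, with 2 within the unadjusted limits and 0 by the analysis of variance. The largest ratios were those of CD2 (2.05), NKG7 (1.62) and CD3E (1.20). For B cells it called 0 of 2, CD79B (-4.64) and CD79A (-1.71), with 1 within these limits and 0 by the analysis of variance. Over all 16653 probes tested, 224 were called, 2670 were within the unadjusted limits and 1229 were so by the analysis of variance. The summed signals were 15.71 to 18.24 in endometrium and 12.86 to 16.57 in blood for the T and natural killer list, and 9.85 to 14.01 and 12.67 to 15.56 for the B cell list. NKG7 made up 38.2% to 92.7% of the T and natural killer sum in endometrium and 26.7% to 88.4% in blood. CD79A made up 96.02% to 99.95% of the B cell sum in endometrium and 95.5% to 97.5% in blood.

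**Figure D5:**
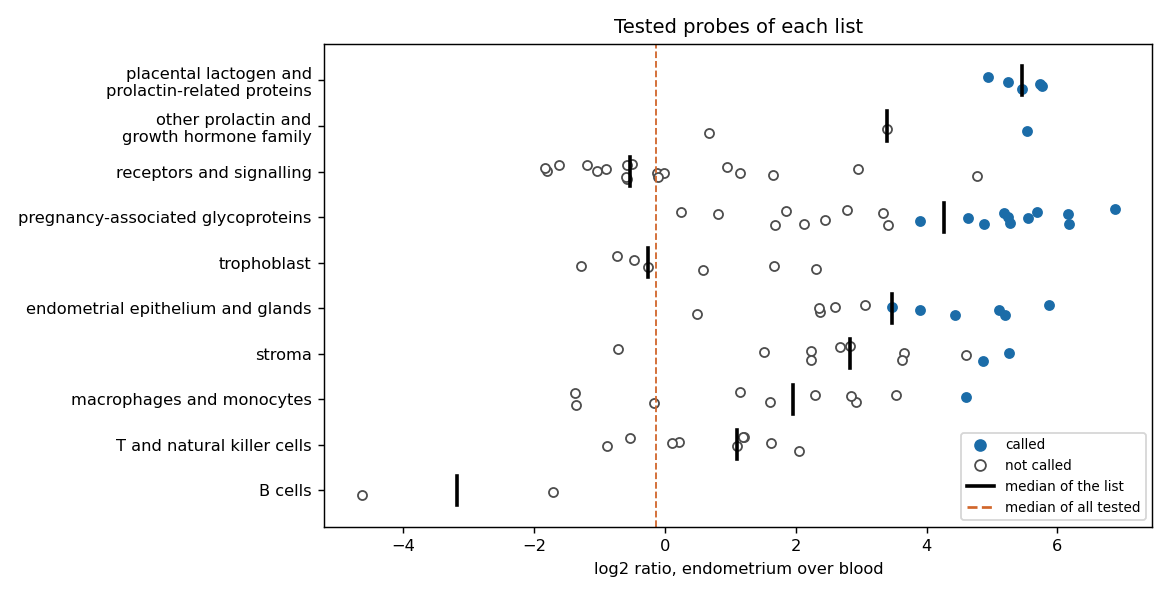
Log2 ratio of endometrium over blood of the tested probes of each list, with called probes filled and the median of each list as a bar. The dashed line is the median of all 16653 probes tested. The 5 members lie between 4.94 and 5.76, above all tested probes of the trophoblast list. The value of 5.76 is that of PRP3, whose blood signal was not well above background.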

How the data were processed

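Amplified RNA of endometrial and blood CD14+ cells from 4 cows was measured on 8 Agilent bovine arrays with 2 colors. The authors deposited scanner intensities of each spot and dye, which were not normalized between arrays, and a log2 value table, made by lowess within each array followed by quantile normalization across 16 channels. The deposited scanner files also hold a processed intensity, corrected for background and dye. The files carry Feature Extraction version 10.5.1.1, while the labels name 9.5. Each of the 16 columns of the table equaled, within 0.001 at 100% of the probes, the labeled dye on the array filed under its animal's other technical replicate, and scanner flags and intensities were read in that way. This match was made with the ranks of the scanner's processed signal, from which background had been subtracted, so the table holds background-subtracted values although the methods name no subtraction. Files, and not tissues, were thus taken as exchanged. In the animals with swapped dyes, reading the files as filed would exchange the tissues, so their intensities, flags and normexp ratios rest on this choice. In animal 3, whose dyes were not swapped, the choice does not affect the direction of the ratio.

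Spots of a probe were averaged, then the 2 technical replicates of each tissue and animal. Endometrium minus blood on the log2 scale was taken within the animal, as in the methods, and tested with limma 3.58.1 in R 4.3.3 (lmFit and eBayes, with statmod 1.5.0), with Benjamini-Hochberg adjustment over 16653 probes that were well above background, in all their spots, in 4 or more of the 8 channels of either tissue. Both tissues of an animal share its number in the labels. The deviations of its tissues from the tissue means had r of 0.628, 0.372, 0.239 and 0.452 in animals 1 to 4. The fit was tested on simulated data. Likeness and letters of probes were computed with Python 3.11.15, pandas 2.3.3 and numpy 2.4.6. Probe names were updated through the RefSeq table of assembly ARS-UCD2.0 for 3519 probes by accession and 9987 by gene identifier, and 7969 kept the name of the array. Lists were matched by gene name or the last symbol in brackets of the array's description, so genes under older names are not counted.

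The members and lists were chosen with earlier results of these data known. The genes named are all member probes, of each list the called probes or else up to 3 with the largest ratio, and the 10 most alike. In a few sentences, chosen after their values were seen, further probes are named. Alternatives changed the values, background correction, filter, pairing, dye, technical replicates, animals, test and threshold. Protein and transcript sequences were not used here, and a few results are not reported here.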

Additional observations from a re-analysis of the deposited data

Results flagged for a closer look

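The log2 value of PRP8 in endometrium was 9.98, 10.35, 12.50 and 10.36 in animals 1 to 4. The gap between animal 3 and the nearest other animal was 0.85 of the whole range, above the critical value of Dixon's test for 4 values. It was the only 1 past this limit of 19 sets of 4 animals examined, namely levels of the members in each tissue and ratios of the members, of the tested relatives and of PRLR. Chance passes about 1 in 20 sets. In the endometrium of animal 3 both arrays carried Cy5, and the technical replicates differed by at most 0.134 in any animal. The part of the dye was not tested.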

How the results depend on the processing

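All 5 members kept a higher value in endometrium under every alternative tried, and of 75 ratios recomputed 61 kept their call and 14 lost it. With normexp, 3 members and 11 probes in all were called, and the ratios that lost the call were 2.63 (PRP8) and 1.61 (PRP3). The offset of this method, added to dim and bright signals alike, lowers the ratio of dim probes by its construction. Without background correction 50 probes were called, and PRP3 lost its call at 2.48 (limma adjusted p = 0.178). When the 8 arrays were fitted with dye as a term and with animals as a random block, PRP3 lost it at 5.83 (adjusted p = 0.0952), and 4 members were called. The cause was not tested. Without the replicate block, which ends the pairing of an animal's tissues, 5 members and 38 probes in all were called in place of 224 (204 higher in endometrium and 20 in blood). Without a filter on dim probes 123 were called, and at a limit of 0.01 for the adjusted p, 58, the 5 members among them. The analysis of variance of the methods called 0 members and 0 probes after adjustment, against 1229 at an unadjusted p of at most 0.05 with a fold change over 2, with ratios of 5.45 (CSH1), 5.25 (PRP1), 5.76 (PRP3), 5.74 (PRP6) and 4.94 (PRP8). Its spread comes from 4 animals alone. Leaving out each animal in turn gave 0 to 180 probes and 0 to 5 members, with ratios of 5.22 to 5.67 (CSH1), 5.11 to 5.38 (PRP1), 5.36 to 6.11 (PRP3), 5.61 to 5.84 (PRP6) and 4.70 to 5.21 (PRP8). The calls were lost without animal 4, when 2674 probes passed the unadjusted limits. Without animal 1, 64 probes were called and without animal 3, 95, and 5 members each time. In blood, signal over background limits what can be said of PRP3 and PRP8.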

Other observations

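PRP-VII, a prolactin-related protein below the filter, was high in 1 animal. Its log2 value in endometrium was 2.61, 2.64 and 3.06 in animals 1 to 3 and 8.84 in animal 4, and in blood it was 2.57, 2.84, 2.87 and 3.68 in animals 1 to 4. Of its 8 endometrial channels 2 were well above background. Of the members, the values of PRP6 and CSH1 in endometrium were lowest in animal 4, at 11.78 and 11.27.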
